A study of Mus musculus with 10 samples.

Results

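Peaks of the estrogen receptor alpha (ERα) were examined around the genes of 3 neuropeptides and their receptors: Kiss1 and Kiss1r, Tac2 and Tacr3, and Pdyn and Oprk1. Every peak lying in one of these genes or within 200 kb of one of its RefSeq start sites was taken, whatever its strength. Merging overlapping peaks over the libraries gave 17 such regions of 8072 in the whole data set, made of 50 peaks of 25982.

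The peaks came from ChIP-seq, a method that pulls down protein-bound chromatin with an antibody (here sc-543 against ERα) and reads its DNA. Female C57BL/6 mice were ovariectomised, carried an implant with 0.1 mg/mL estradiol, received 0.05 mg/kg estradiol benzoate and had their tissue collected 28 h later. There were 4 libraries of the arcuate nucleus and 4 of the AVPV, a dissection that takes in the periventricular and anteroventral periventricular nuclei, all under the same treatment, so that the comparison is between nuclei and never between treated and untreated animals. The chromatin was pooled from whole dissected nuclei, so the cell type behind a peak is unknown, and it is not given whether each library had a pool of its own. Every SD below therefore measures the spread between libraries, which may be technical, and every p-value takes such libraries as its units.

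Kisspeptin, the product of Kiss1, drives the neurons that release gonadotropin-releasing hormone, and Kiss1r is its receptor on those neurons. In the arcuate, kisspeptin neurons also make neurokinin B, encoded by Tac2, and dynorphin, encoded by Pdyn. Neurokinin B excites these cells through the receptor encoded by Tacr3, and dynorphin restrains them through the kappa opioid receptor encoded by Oprk1, and together these signals shape pulsatile release. The kisspeptin neurons of the AVPV serve the preovulatory surge. ERα binds DNA as a dimer, most tightly at the palindromic estrogen response element AGGTCANNNTGACCT, where N is any base.

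The sequences at 5 of the regions carry the account that follows. They are the 3 regions closest to the ligand genes that were called in the arcuate, the only region with a peak in all 8 libraries, and the region nearest to Kiss1r that was called in both nuclei. All 5 held an element with at most 2 mismatches, which 6 of the 9 called regions had. A nearer Kiss1r region, 51.1 kb upstream and called in the arcuate only, had 3 mismatches and is not printed. Each of the 5 is given 5′ to 3′ on the plus strand of mm10, with the closest match to the response element in capitals. 
Kiss1, 123.0 kb upstream, chr1:133204179-133204273: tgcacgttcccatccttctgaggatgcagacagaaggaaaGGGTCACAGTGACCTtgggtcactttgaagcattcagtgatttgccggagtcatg
Kiss1, 3.8 kb upstream, chr1:133323451-133323545: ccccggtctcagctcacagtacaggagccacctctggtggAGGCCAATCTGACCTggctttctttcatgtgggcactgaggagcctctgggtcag
Tac2, 4.2 kb upstream, chr10:127720294-127720388: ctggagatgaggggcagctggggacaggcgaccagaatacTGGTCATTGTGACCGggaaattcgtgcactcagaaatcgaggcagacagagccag
Pdyn, 82.2 kb upstream, chr2:129782057-129782151: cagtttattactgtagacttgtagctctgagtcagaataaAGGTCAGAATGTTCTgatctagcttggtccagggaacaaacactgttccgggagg
Kiss1r, 75.8 kb upstream, chr10:79841193-79841287: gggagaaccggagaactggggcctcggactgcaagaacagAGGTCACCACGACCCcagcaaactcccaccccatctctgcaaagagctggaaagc
Positions within an element are counted from 1 at its 5′ end, with the base of the palindrome before the position and the base of the genome after it. The matches were A1G at the far Kiss1 region, T4C at the near Kiss1 region, A1T and T15G at Tac2, A12T and C13T at Pdyn, and T10C and T15C at Kiss1r. The distance from the element's centre to the nearest library summit was 0 bp, 44 bp, 8 bp, 3 bp and 34 bp, in the same order.

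A region counted as called where 2 or more of the 4 libraries held a peak. At least 1 nucleus called 9 of the 17 regions, against a background of 54.4% of all regions. Of the 17, 6 were called in the arcuate only, against 18.8%. None was called in the AVPV only, against 9.03%. Another 3 were called in both nuclei, against 26.5%, and 8 were called in neither, against 45.6%. These 8 each rested on a peak of a single library. The 6 arcuate-only regions made up 35.3% of the 17. Counts this small are given as a description.

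**Figure D1:**
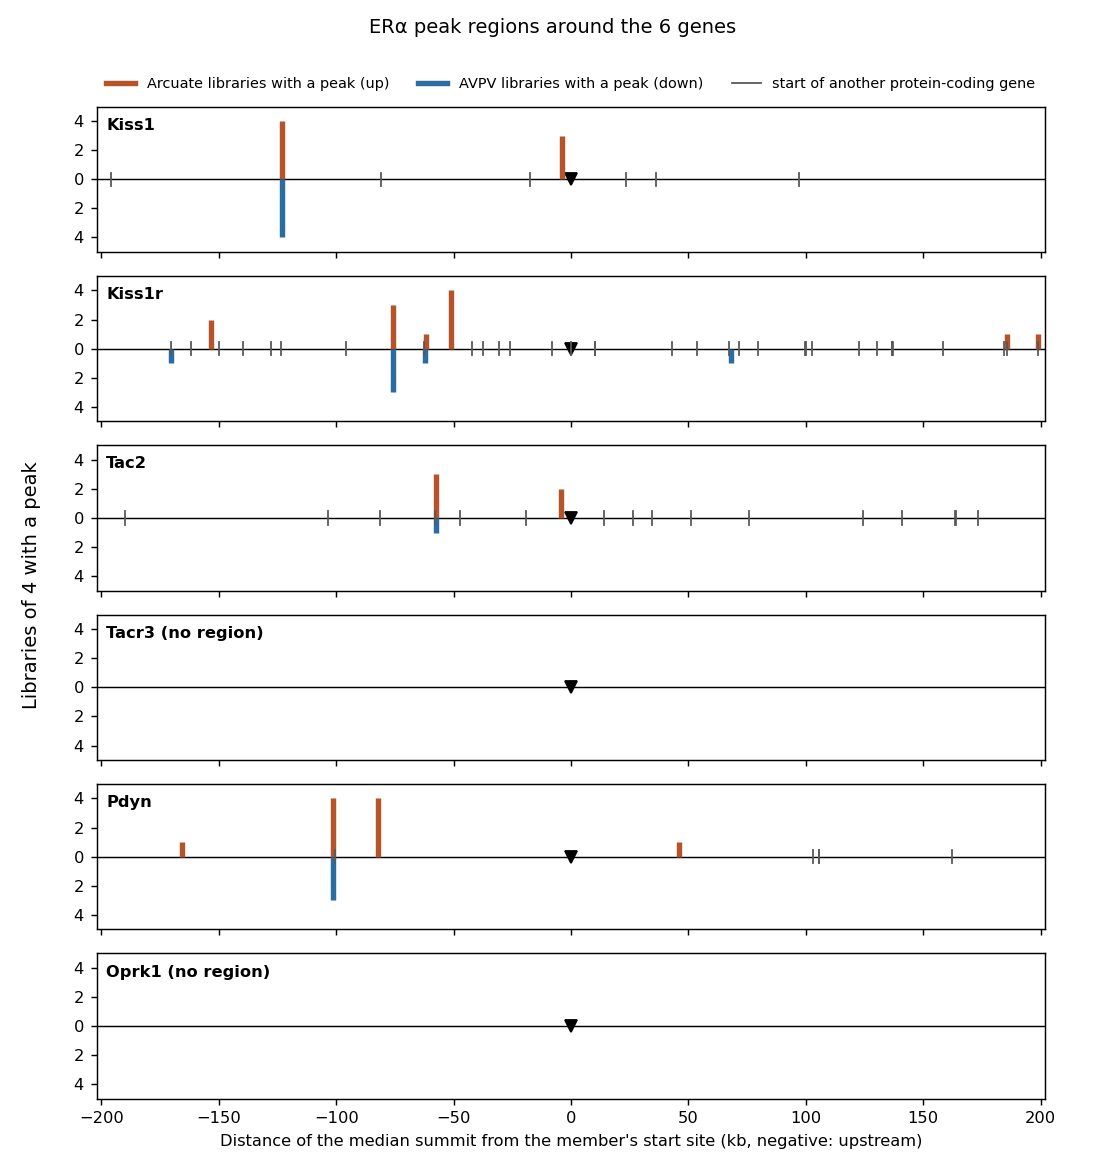
Libraries with a peak (of 4) at each merged region, against the distance in kb of its median summit from the nearest start site of the gene named in the panel. Arcuate libraries are drawn upwards and AVPV libraries downwards, thin ticks mark starts of other protein-coding genes, and Tacr3 and Oprk1 have no region.

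Regions fell unevenly over the genes. Kiss1 had 2, Tac2 had 2, Pdyn had 4 and Kiss1r had 9, whereas Tacr3 and Oprk1 had none. None of the 17 lay inside the RefSeq body of a member gene. For 3 regions the member's start site was the nearest of any protein-coding gene, and for the other 14 another gene started closer. Kiss1r sat among 25 other protein-coding genes starting within its window, compared with 15 for Tac2, 6 for Kiss1, 3 for Pdyn and none for either receptor without a region.

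How far a missing peak can be read depends on depth. The fold enrichment and p-value of each peak together gave the whole number of fragments stacked at its summit and the local background. The genome-wide background, which follows depth, was 2.90, 2.72, 2.07 and 1.77 fragments in arcuate libraries 1 to 4 and 2.82, 2.46, 2.196 and 2.52 in AVPV libraries 1 to 4. Where the local background equalled it, the weakest called summit held 9 to 13 fragments in arcuate lists and 11 to 13 in AVPV lists, or 4.42 to 5.08 times the background over the 8 libraries. The lists held 3251 to 4079 peaks for the arcuate and 2367 to 3347 for the AVPV. Fragment counts below carry 95% exact Poisson intervals, which cover counting error only.

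The region nearest to a Kiss1 start lay 3.8 kb upstream (chr1:133323173-133323592), just past the annotated end of the neighbouring gene Golt1a. It had peaks in arcuate libraries 1, 2 and 3 and in no AVPV library. Library 1 had 31 fragments at the summit (21.1 to 44.0), library 2 had 22 (13.8 to 33.3) and library 3 had 16 (9.15 to 26.0). This was 8.84 ± 1.62 times the genome background (SD, n = 3), and its fold enrichment stood at the 72.1, 52.4 and 35.9 percentile, which is its rank among the peaks of the same library. It was thus not among the strongest peaks of any list. At the same multiple of background, arcuate library 4 would hold 15.7 fragments against a lowest called summit of 9, and the AVPV libraries 19.4 to 25.0 against 11 to 13. These levels lie above the lowest called summits, although fragment numbers scatter around such values. The multiple is the mean of the libraries with a peak alone. It therefore does not tell what the libraries without a peak held, and the same holds for such levels given below. Presence in 3 of 4 against 0 of 4 libraries gave p = 0.143 (Fisher's exact test, two-sided) and an adjusted p of 1. In the GENCODE vM21 annotation a Kiss1 transcript starts further upstream, which puts the same summit 1.575 kb downstream of a start site.

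The far region of Kiss1, 123.0 kb upstream (chr1:133203907-133204919), was the only one of the 17 with a peak in every library. It was intergenic, and Plekha6 (41.9 kb), Ppp1r15b and Golt1a all started closer to it than Kiss1. Arcuate libraries 1 to 4 held 93, 63, 46 and 41 fragments at the summit, and AVPV libraries 1 to 4 held 65, 59, 57 and 45. These were the largest counts among the 50 peaks apart from a summit of 52 fragments near Pdyn. Arcuate library 3 had a second, weaker peak of 16 fragments in the same region.

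The order of the nuclei at this far region depended on the measure. By percentile of fold enrichment it stood at 91.1, 83.0, 77.2 and 82.0 in the arcuate lists and 91.6, 94.7, 92.9 and 87.9 in the AVPV lists. The mean was 83.3 ± 5.76 against 91.8 ± 2.89 (SD, n = 4 each), a difference of -8.49 points (exact permutation test, two-sided, p = 0.0571, adjusted p = 0.204 over 1089 regions with peaks in all libraries). By fragments over genome background the order of the means was the other way, 25.2 ± 4.65 in the arcuate and 22.7 ± 3.47 in the AVPV, with p = 0.514 (exact permutation test) and adjusted p = 0.795. The higher arcuate mean came with a value of 32.1 in arcuate library 1. Arcuate libraries 2 to 4 stood at 23.2, 22.2 and 23.1, inside the AVPV range of 17.8 to 26.0. The groups overlapped in both measures, and neither difference passed the threshold. By percentile only arcuate library 1 reached the AVPV range. Without it the difference was -11.07 (exact permutation test, p = 0.0286, adjusted p = 0.202). Leaving out any other single library gave p from 0.0571 to 0.114 in the same test. Ranking by -log10 p in place of fold brought the difference in percentile to -0.709. The local background differed between the nuclei here, at 1.98 to 2.08 times the genome background in the 4 arcuate libraries and 1.00 to 1.17 times in the 4 AVPV libraries, and its part in the lower arcuate fold was not tested. Among all 1089 regions, 14.2% had percentiles higher in every arcuate library and 6.80% higher in every AVPV library, and none passed the adjusted threshold, where 229 had an unadjusted p below 0.05.

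**Figure D2:**
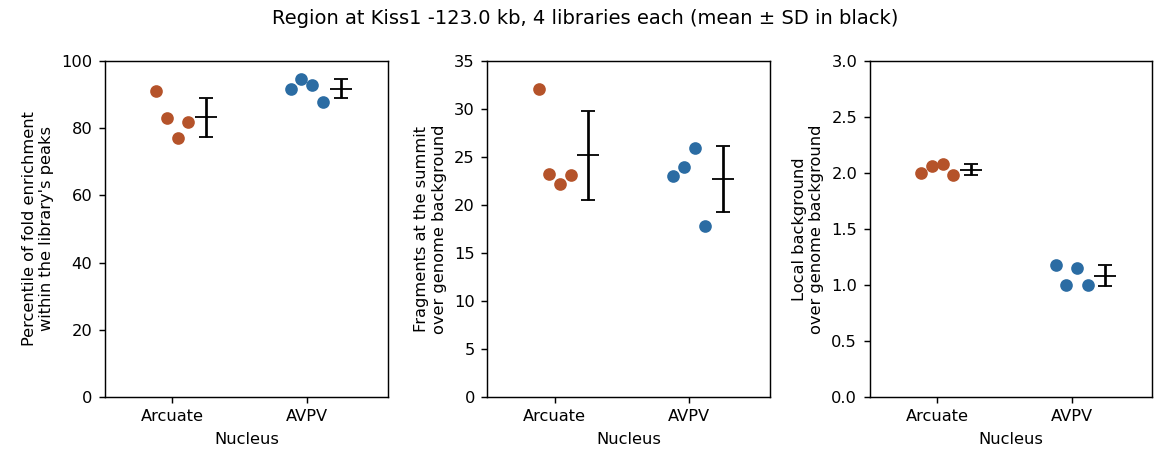
Percentile of fold enrichment, fragments at the summit over genome background, and local over genome background at the region 123.0 kb upstream of Kiss1, for each of 4 arcuate and 4 AVPV libraries, with mean and SD in black. Percentiles average 83.3 and 91.8, fragments over background 25.2 and 22.7, and the local background lies near 2 in the arcuate and near 1 in the AVPV.

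Tac2 had its nearest region 4.2 kb upstream (chr10:127720164-127720453), in an intron of the neighbouring gene Myo1a, which encodes an unconventional myosin. Peaks were present in arcuate library 2, with 23 fragments (14.6 to 34.5), and arcuate library 3, with 19 (11.4 to 29.7). Arcuate libraries 1 and 4 and all AVPV libraries had no peak there. The 2 peaks stood at 8.47 and 9.18 times the genome background and at the 58.0 and 53.7 percentile of their lists. At that level, arcuate library 1 would hold 25.6 fragments against a lowest called summit of 13. The level is the mean of the 2 libraries with a peak and does not tell what library 1 held. Arcuate library 1, the library with the highest background, was among those without the peak. Presence in 2 of 4 against 0 of 4 gave p = 0.429 (Fisher's exact test). The element matched the palindrome at all but its outermost pair of bases.

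The other Tac2 region lay 57.5 kb upstream, 0.32 kb from the start of Nab2, a transcriptional corepressor gene, and 5 genes started closer to it than Tac2. It had peaks of 21, 21 and 13 fragments in arcuate libraries 2, 3 and 4 and of 22 fragments in AVPV library 3. No match to the response element with at most 2 mismatches lay within 100 bp of its summits. Arcuate library 1 thus had no peak anywhere in the Tac2 window. For Tac2 the nearest region called in the AVPV lay 310.2 kb away, within 0.284 kb of the start of Naca.

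Pdyn had no called region closer than 82.2 kb. That region (chr2:129781906-129782324) was intergenic, upstream of Pdyn, and 18.4 kb from the start of Stk35, a kinase gene, which was the only gene closer. All 4 arcuate libraries had a peak there, with 52, 40, 24 and 29 fragments in libraries 1 to 4, and no AVPV library did. The mean was 15.2 ± 2.72 times the genome background (SD, n = 4), and the percentiles were 78.4, 66.1, 33.0 and 87.3. At that level the AVPV libraries would hold 33.3 to 42.8 fragments, against a lowest called summit of 11 to 13 at their genome background. The local background was 1.67 to 1.73 times the genome background in arcuate libraries 1 to 3 and equal to it in library 4. A separation of 4 against 0 is the strongest this design allows (Fisher's exact test, p = 0.0286). Its adjusted p was 0.969, since 2.13% of all regions showed it in this direction and 0.818% in the other, and no region passed the adjusted threshold, where 238 had an unadjusted p below 0.05. Passing would have needed most of all regions to separate completely, so that the adjusted result cannot decide on a single region. An AP-1 motif, TGANTCA, the site of Fos and Jun proteins, lay within 100 bp of the summit. That motif was present at 2 of the 17 regions and at 7.83% of all regions.

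The second AP-1 motif was at the region 101.2 kb upstream of Pdyn, 0.644 kb from the start of Stk35 and in an exon of its antisense transcript Stk35os1. Peaks were found in all 4 arcuate libraries, with 17, 24, 26 and 22 fragments, and in AVPV libraries 1, 3 and 4, with 19, 23 and 20. AVPV library 4 had a second, weaker peak of 16 fragments in the same region. The arcuate level was 9.92 ± 3.20 times the genome background (SD, n = 4) and the AVPV level 8.37 ± 1.91 (SD, n = 3), and the libraries of both nuclei overlapped. It had no match to the response element. The other Pdyn regions had a peak of arcuate library 2 alone. One was 46.0 kb downstream of the Pdyn start, with 20 fragments, and was the only Pdyn region with no gene closer. The other was 165.7 kb upstream, with 16 fragments and an element with the single change G2A.

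Kiss1r, the kisspeptin receptor gene, had the most regions and also the most neighbours. The nearest lay 51.1 kb upstream (chr10:79865760-79866038), in an exon of Plppr3, whose start was 8.77 kb away. It had peaks in all 4 arcuate libraries, with 26, 29, 21 and 20 fragments, and in no AVPV library. The libraries lay close together, at 10.3 ± 0.981 times the genome background (SD, n = 4), and at that level the AVPV libraries would hold 22.6 to 29 fragments. With p = 0.0286 and adjusted p = 0.969 (Fisher's exact test) it was the other of the 2 regions separating the nuclei completely, and 8 genes started closer to it than Kiss1r. The best match to the response element had 3 mismatches.

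The region 75.8 kb upstream of Kiss1r, 13.2 kb from the start of the splicing regulator gene Ptbp1, was called in both nuclei. Arcuate libraries 2, 3 and 4 had 19, 17 and 24 fragments and AVPV libraries 1, 2 and 4 had 17, 19 and 19. The level was 9.58 ± 3.48 times background in the arcuate and 7.09 ± 0.932 in the AVPV (SD, n = 3 each), and the groups overlapped. Arcuate libraries 1 and 3 shared a weaker region 153.3 kb upstream, in an intron of Rnf126, with 23 and 14 fragments at the 10.3 and 15.1 percentile.

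The remaining 6 Kiss1r regions each came from 1 library and held 11 to 19 fragments. Arcuate library 4, the library with the lowest background, gave 3 of them, at the promoters of E130317F20Rik and Sbno2 and in an exon of Stk11. AVPV library 3 gave 2 and AVPV library 4 gave 1. The GC content around the summit was 74.1%, 70.1% and 70.6% at the regions of arcuate library 4, 72.1% and 53.7% at those of AVPV library 3 and 58.2% at that of AVPV library 4, against a median of 52.2% over all regions. None of the 6 held a response element with at most 2 mismatches.

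**Figure D3:**
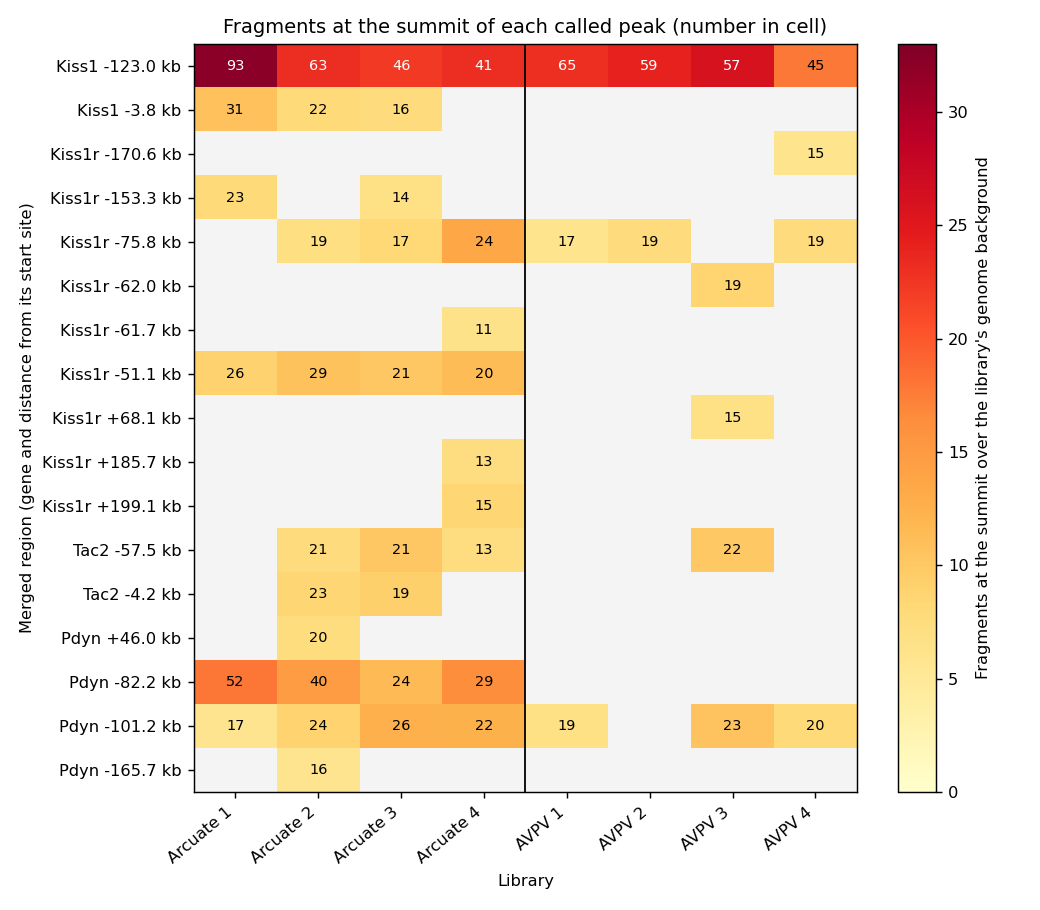
Fragments at the summit (number in each cell) for the 17 regions in rows and the 8 libraries in columns, coloured by fragments over the library's genome background, with pale cells where no peak was called. The far Kiss1 region fills all 8 columns with 41 to 93 fragments, and the regions 82.2 kb from Pdyn and 51.1 kb from Kiss1r fill the 4 arcuate columns alone.

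The receptor genes of neurokinin B and dynorphin had no region. No library had a peak in the window of Tacr3, and the nearest peak of any library was 1070.6 kb upstream, in a region called in all 8 libraries whose nearest gene start was that of Tet2. For Oprk1 the nearest peak was 237.8 kb upstream in a single arcuate library, and the nearest called region was 1566.6 kb away, in an intron of Pcmtd1. A window without a peak in any library was found for 26.7% of 21000 protein-coding genes. No other protein-coding gene starts within either window.

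Peaks were next counted per library over each whole window. Arcuate libraries 1 to 4 had 2, 2, 3 and 1 peaks for Kiss1 and each AVPV library had 1. For Kiss1r the counts were 2, 2, 3 and 5 in the arcuate and 1, 1, 2 and 2 in the AVPV. Tac2 had 0, 2, 2 and 1 against 0, 0, 1 and 0, and Pdyn had 2, 4, 2 and 2 against 1, 0, 1 and 2. Both Pdyn peaks of AVPV library 4 lay in 1 merged region, 101.2 kb upstream. The arcuate mean was higher for each of the 4 genes, and for each of them the groups overlapped. The differences were 1.00 for Kiss1 (p = 0.143), 1.5 for Kiss1r (p = 0.171), 1.00 for Tac2 (p = 0.257) and 1.5 for Pdyn (p = 0.114) in exact permutation tests, with adjusted p from 0.878 to 1. Without arcuate library 4 the Kiss1r difference was 0.833, and with lists of equal length it was 0.75. The Pdyn difference was 1.25 with a 100 kb window (exact permutation test, p = 0.0286, adjusted p = 0.955). Without AVPV library 4 it was 1.83 (exact permutation test, p = 0.0286, adjusted p = 0.599). Leaving out arcuate library 4 brought the Kiss1 difference to 1.33 (exact permutation test, p = 0.0286, adjusted p = 0.399). With weaker peaks removed (-log10 q below 5), the Kiss1r difference was 1.25 (exact permutation test, p = 0.0286, adjusted p = 0.691). For Tac2 the lowest p under any alternative was 0.0857 (exact permutation test), without arcuate library 1. The arcuate lists were also longer in general, with 3667 ± 376 peaks against 2829 ± 454 (SD, n = 4 each). Of 15401 genes with a peak in the window, 3.52% had more peaks in every arcuate library and 0.643% in every AVPV library. None of them passed the adjusted threshold, where 641 had an unadjusted p below 0.05.

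**Figure D4:**
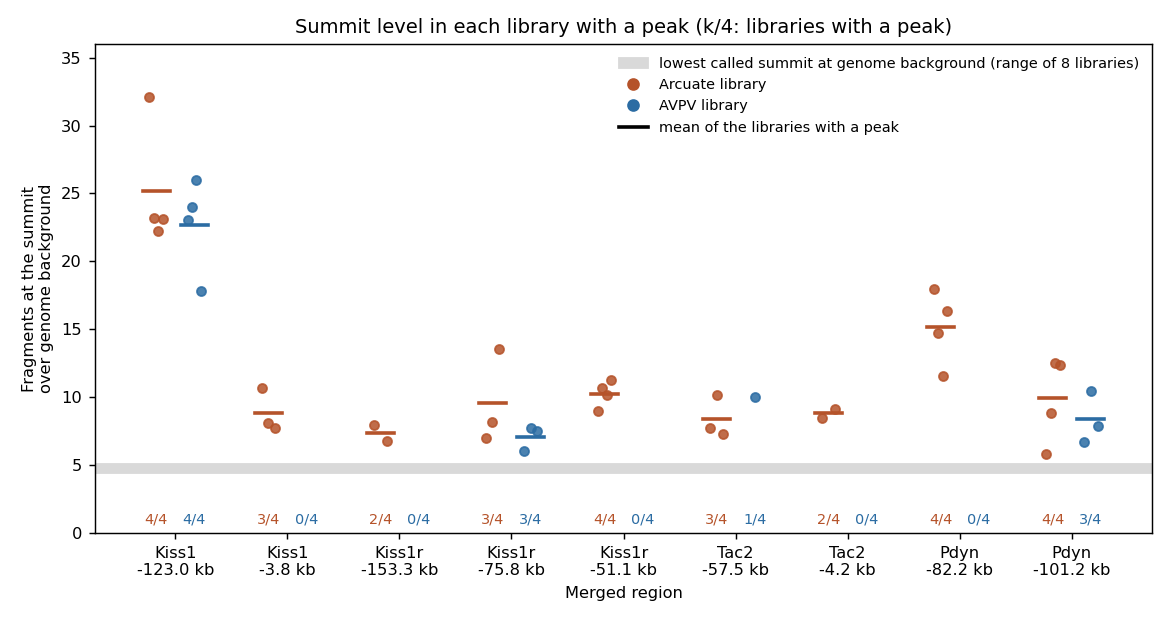
Fragments at the summit over genome background for each library with a peak at the 9 called regions, with the mean of the libraries with a peak as a line and the number of libraries with a peak below. The grey band marks the lowest called summit of each library at genome background, 4.42 to 5.08. Only called peaks are drawn, so that no point can lie below the lowest called level of its library.

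Sequence features were described without a test, since so few regions were involved. An element with at most 2 mismatches in the 12 fixed bases of the palindrome lay within 100 bp of a summit at 7 of the 17 regions (41.2%), against 29.5% of all regions. It was present at 6 of the 9 called regions and 1 of the 8 single-library regions. Over all regions it was also commoner where a region was called, at 41.7% of arcuate-only regions, 34.4% of AVPV-only regions and 35.9% of regions called in both, against 19.7% of regions called in neither. The search took in 100 bp around the summit of every library with a peak. Regions with peaks in more libraries could thus be searched over more sequence, and the part of this in the shares was not tested. None of the 17 had an unchanged palindrome, which 2.44% of all regions had. Promoters, taken as 1 kb before to 100 bp after a start site, held 5 of the 17 regions (29.4%, against 26.4% of all), and none of those promoters was that of a member gene.

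The rest of the reproductive and neuropeptide axis was examined in the same way. Of 27 other genes, 12 had a region called in the arcuate within 200 kb and 11 in the AVPV, against 53.8% and 48.5% of all protein-coding genes, and 10 had no peak. A region in either nucleus was found for 14 of the 27, against 58.6% of all protein-coding genes. By list, these were 4 of 5 genes of gonadotropin-releasing hormone and the gonadotropins, 2 of 4 other tachykinin genes, 4 of 6 other opioid genes, 3 of 8 other RFamide peptide genes and 1 of 4 peptide processing genes. Within 20 kb of a start or in the gene itself, where 18.7% of all genes had a called region, 5 of the 27 did. Npff, which encodes neuropeptide FF, had a region in all 8 libraries 6.05 kb from its start, in an exon of Tarbp2. Its receptor gene Npffr1 had a region in an exon of its own, in 4 arcuate and 3 AVPV libraries. Oprm1, the mu opioid receptor gene, had an intronic region in 3 arcuate libraries and no AVPV library, with an unchanged palindrome, and another in 2 AVPV libraries alone. Fshb, which encodes a gonadotropin subunit, had a region in 2 arcuate libraries 18.3 kb from its start. Pomc, the precursor of beta-endorphin, had a region in 4 arcuate and no AVPV libraries 12.8 kb upstream and another, in its own exon, in 2 arcuate and 3 AVPV libraries.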

How the data were processed

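The 8 deposited lists hold the peaks of single ERα ChIP-seq libraries. The authors aligned reads to mm10 with Bowtie2 2.5.0 and called peaks with MACS2 2.2.7.1 at a false discovery rate of 5%, and deepTools 3.5 is also named in the submitters' processing notes. Each deposited peak carries a fold enrichment, a ratio over local background with a pseudocount of 1, with p-value and q-value on the -log10 scale. The deposited offsets gave the summits. Input libraries of both nuclei were not analysed here.

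Peaks of any library that overlapped by 1 bp or more formed a region, and 1 value per library, the peak of highest fold, was kept per region. The percentile is the rank of a fold within its own list. Fragments at the summit and local background were solved from fold and p, within 0.001 of the deposited -log10 p for 99.75% to 99.91% of peaks per list, and the most frequent local background was taken as that of the genome. Start sites were those of 45756 RefSeq transcripts of GRCm38.p6. Regions were compared by Fisher's exact test and values per library by exact permutation over 70 divisions, adjusted by Benjamini-Hochberg over all regions or genes. Motifs were searched on both strands, which is the same search for a palindrome.

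Described library by library are regions nearest to a member start site, the region nearest to each gene and regions separating the nuclei completely, and of other genes those with a called region within 20 kb. The remaining called regions were added to these after their values were seen. The member genes and lists were chosen with earlier results of these data known. The steps were tested on simulated data. The smallest p the design allows is 0.0286. With it, passing the adjusted threshold needs most of the regions or genes tested to separate completely. That none passed therefore cannot decide on a single region or gene. No 2 lists shared more than 1 identical peak. Software was samtools 1.23.1 and Python 3.11.15 with pysam 0.24.0, pandas 2.3.3, scipy 1.17.1, numpy 2.4.6 and matplotlib 3.10.9. Alternatives were other windows, thresholds, list lengths, call rules, merging, element limits, leaving out each library, and a replicate block.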

Additional observations from a re-analysis of the deposited data

Results flagged for a closer look

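In 4 of 27 groups of 4 libraries tested, 1 library stood apart from the other 3 by Dixon's criterion. For continuous values chance gives this in about 1 in 20 groups. Arcuate library 1 stood highest at the region 123.0 kb upstream of Kiss1, with a fold enrichment of 13.8 and 32.1 times the genome background, and both flags come from the same peak. Arcuate library 2 had 4 peaks in the Pdyn window where the other arcuate libraries had 2. AVPV library 3 had 1 peak in the Tac2 window where the other AVPV libraries had 0. For these small counts a single differing library always meets the criterion when the other 3 are tied, so that the chance rate does not apply to them. The 27 groups also include counts equal in all 4 libraries, which could not be flagged. These were Tacr3 and Oprk1 in both nuclei and Kiss1 in the AVPV.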

How the results depend on the processing

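Widths decided most counts. The 17 regions became 10, 3 and 2 with windows of 100, 50 and 20 kb, and 11 with lists of equal length. Regions called in the arcuate only were 2 at 50 and 20 kb, regions called in both nuclei were 1, 0 and 0 at 100, 50 and 20 kb, and the regions with peaks in every arcuate and no AVPV library were 0 at 50 and 20 kb. The shares of all regions given above hold for the rule of 2 or more libraries and are not given for other rules. Needing 1 library gave 10 arcuate-only and 3 AVPV-only regions, and needing all 4 gave 3 arcuate-only regions and 1 in both. Of these 3 arcuate-only regions, the one 101.2 kb upstream of Pdyn had peaks in 3 AVPV libraries. At most 1 mismatch left 3 regions with an element, 2 of them called. With a 20 kb window, 5 of the 27 other genes had an arcuate region and 4 an AVPV region, against 16.5% and 14.1% of all protein-coding genes. For the far Kiss1 region, fragments over genome background, an alternative chosen after seeing the data, gave an arcuate excess of 2.47 where percentiles gave -8.49. Leaving out each library in turn gave 14 to 17 regions, 4 to 6 arcuate-only, 3 in both, 2 to 3 with peaks in every arcuate and no AVPV library, and -11.07 to -6.45 for the far Kiss1 percentile, which was -15.32 with lists of equal length. For peaks per gene it gave 0.667 to 1.33 for Kiss1, 0.833 (without arcuate library 4) to 1.83 for Kiss1r, 0.75 to 1.42 for Tac2 and 1 to 1.83 for Pdyn. With a 50 kb window Pdyn fell to 0.25 and Tac2 to 0.5, and the Kiss1r window held no peak. The replicate block (sign-flip over same-numbered libraries) left that difference at -8.49 (p = 0.125 in an exact test, the smallest it can give) and the differences in peaks per gene at 1.00 for Kiss1 and Tac2 and 1.5 for Kiss1r and Pdyn. Same-numbered libraries did not deviate together (r from -0.213 to 0.0493, against -0.22 to 0.239 for the other combinations). With 4 such pairs this cannot decide whether the numbers mark a pairing. Where the local background equalled that of the genome, the lowest called summits held 9 to 13 fragments.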
